A study of Mus musculus with 6 samples.

Results

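The genes described here encode the nuclear-encoded subunits of respiratory complexes II, III, IV and V, together with cytochrome c. They were chosen by symbol, as Sdha to Sdhd, Cycs, Cyc1, and the symbols beginning with Uqcr, Cox4 to Cox8 or Atp5. This gave 47 of the 17666 genes in the table: 4 of complex II, 9 of complex III, cytochrome c itself (Cycs), 17 of complex IV, 15 of complex V, and Atp5s, known as coupling factor B, which is not a core subunit and was kept apart. RNA sequencing was done on auditory nerve microdissected from the cochleas of C57 mice aged 1.5 to 2.5 months. There were 3 samples labelled wildtype and 3 labelled knockout of complement factor B (Cfb), each holding the 2 cochleas of 1 mouse. The sources used here do not give the knockout allele, its breeding or the sex of the mice. Mitochondrially encoded subunits were not analysed here.

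Values are normalized counts, which the authors scaled per sample and rounded. The column totals of 38675077 to 41496282 follow from that scaling, so the sequencing depth behind each value is unknown. Cfb, the targeted gene, went against the labels: it stood at 336, 351 and 376 normalized counts under the knockout label and at only 55, 39 and 116 under the wildtype label. Every direction below is therefore between libraries as labelled. The 10 markers of spiral ganglion neurons, whose fibres form the nerve, were all measured and summed to between 302190 and 527490 normalized counts over the 6 libraries, with overlap between the labels. In tissue samples of this kind, fewer cells of a type and less RNA per cell cannot be told apart.

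The respiratory chain sits in the inner mitochondrial membrane. Complex II (succinate dehydrogenase) passes electrons from the citric acid cycle to ubiquinone, complex III passes them on to cytochrome c, and complex IV (cytochrome c oxidase) hands them to oxygen. Complexes III and IV pump protons, and complex V (ATP synthase) uses the gradient to make ATP. Many nuclear genes of the chain carry promoter sites for the factors NRF1 and GABPA (NRF2), and the spiral ganglion neurons of the auditory nerve fire at high rates and depend on oxidative metabolism.

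Promoters are shown because genes of the 4 complexes were mostly lower under the same label, as described below. RefSeq windows (GRCm38.p6) from 250 bases before to 50 bases after the transcription start were matched for 37 of the 47 genes. The NRF1 motif, searched on both strands, was in the windows of 10 of these 37 genes (27.0%) and of 7.0% of all 27025 genes with a window. Shares of all genes in this paragraph are over these 27025, which include genes outside the 17666 measured. The GABPA letters CCGGAAG, also on both strands, were in 12 (32.4%) against 9.93% of all genes. The letters of YY1 (AAGATGGCG) and of ERRA (TCAAGGTCA) were in 2 genes each, and a TATA box (TATAAA) was in 3 (8.11%, against 15.7% of all genes). At least 1 of the first 4 motifs was in 19 genes (51.4%, against 17%). A match is a run of letters and not a measured binding site. For each complex the stretch before the start is printed for 1 gene with an NRF1 or GABPA match outside annotated exons, as an example. The printed genes are not always those with the lowest limma p among genes with a match before the start. Cox6b1 and Cox8a had a lower limma p than Cox6a1, as did Atp5c1, Atp5g2, Atp5j, Atp5k and Atp5l than Atp5e. Each printed stretch is on the minus strand, 5′ to 3′, with the match in capitals.
Sdhd, complex II, chr9:50603850-50603909, GABPA match starting 46 bases before the start: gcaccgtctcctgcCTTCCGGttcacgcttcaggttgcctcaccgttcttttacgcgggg
Uqcrh, complex III, chr4:116075072-116075171, GABPA match starting 10 bases before the start: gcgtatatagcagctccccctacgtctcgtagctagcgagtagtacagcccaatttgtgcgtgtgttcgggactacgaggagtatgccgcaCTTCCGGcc
Cox6a1, complex IV, chr5:115348982-115349081, NRF1 match starting 117 bases before the start: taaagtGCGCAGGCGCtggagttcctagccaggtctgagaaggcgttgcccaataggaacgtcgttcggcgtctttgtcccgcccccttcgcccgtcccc
Atp5e, complex V, chr2:174464106-174464205, GABPA match starting 102 bases before the start: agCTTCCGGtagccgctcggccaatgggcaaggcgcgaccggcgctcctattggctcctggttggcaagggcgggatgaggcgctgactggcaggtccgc

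Transcripts of all 4 complexes were mostly lower in the libraries labelled knockout. The log2 difference, on log2(value + 1) and knockout minus wildtype, was below 0 for 45 of the 47 genes, against 49.3% of all genes. In 35 genes (74.5%) every library labelled knockout was below every library labelled wildtype, against 14.9% of all genes. None of the 47 was separated in the other direction, against 13.6% of all genes, and 12 overlapped. The median log2 difference was -0.46, against 0.01 over all genes tested. At a false discovery rate under 0.05, 18 of the 47 (38.3%) fell and 0 rose in the authors' deposited table, where 2.87% of all genes fell and 3.66% rose. With limma and Benjamini-Hochberg adjustment over all 17666 genes, 0 of the 47 passed 0.05, against 0.158% of all genes in either direction and 0.0566% lower, and the lowest adjusted p was 0.146. At an unadjusted limma p under 0.05 there were 33, each of them lower, against 9.2% of all genes.

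**Figure D1:**
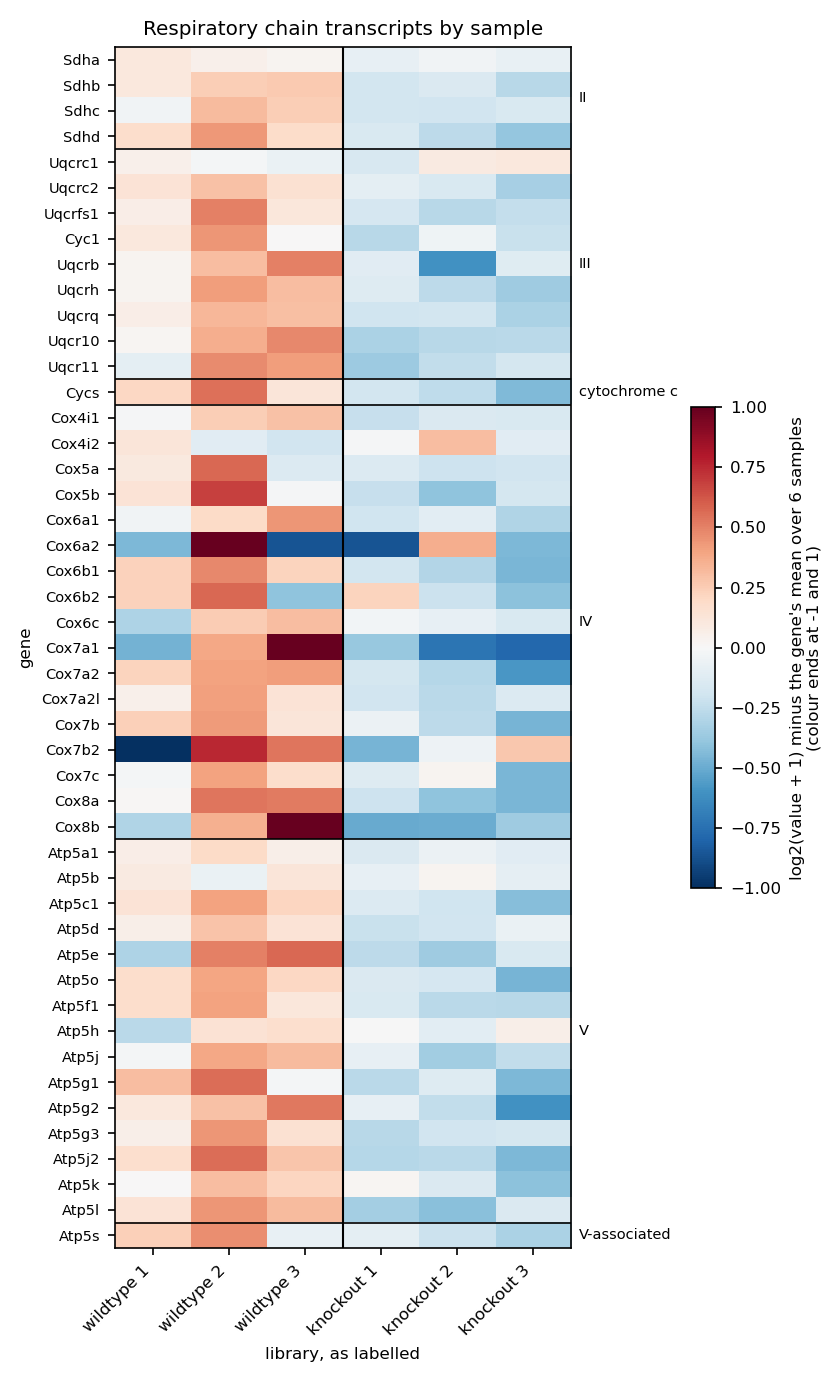
Heatmap of log2(value + 1) minus the gene's mean over the 6 samples, with 1 row per gene, ordered by complex, and 1 column per library. The libraries labelled knockout are mostly on the low side, and wildtype replicate 2 holds the highest value for 31 of 47 genes.

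The libraries of a label were not alike. Wildtype replicate 2 was highest for 31 genes and wildtype replicate 3 for 13, while knockout replicate 3 was lowest for 23. The 47 genes made up 0.896%, 1.05% and 0.919% of the column total under the wildtype label and 0.775%, 0.764% and 0.733% under the knockout label. The median coefficient of variation over the 40 genes that are neither restricted isoforms nor Atp5s was 13.5% among libraries labelled wildtype and 7.46% among those labelled knockout. Over all 14214 genes with a mean of at least 50 it was 17.5% and 7.64%, so the wider spread under the wildtype label was not limited to these genes. With any 1 library left out, the median log2 difference of the 47 genes lay between -0.54 and -0.38, and 42 to 46 of them were below 0.

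All 4 subunits of complex II were separated and lower. Their median log2 difference was -0.38. Sdhd, a membrane anchor (GRCm38.p6, chromosome 9, 50596340 to 50603849), measured 6096, 7310 and 6158 under the wildtype label and 4873, 4522 and 4136 under the knockout label. In the authors' deposited table it fell 1.45-fold (false discovery rate 0.00807). Sdhb, the iron-sulfur subunit, measured 5869, 6461 and 6519 against 4780, 4915 and 4480, a fall of 1.33-fold in the authors' deposited table (rate 0.00813). The other anchor, Sdhc, at 4152, 5314 and 5041 against 3753, 3734 and 3827, had a rate of 0.093 in the authors' deposited table. Sdha, the flavoprotein that oxidises succinate and the highest of the 4 per kilobase of transcript, differed least: 25067, 24036 and 23707 against 21992, 22738 and 22127, a log2 difference of -0.12 (SE 0.12; limma adjusted p = 0.592).

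In complex III and cytochrome c, 9 of 10 genes were separated and lower, with a median log2 difference of -0.48. Cycs, which carries electrons from complex III to complex IV and also takes part in apoptosis (chromosome 6, 50562563 to 50566569), measured 6462, 8208 and 6081 against 4933, 4705 and 4131. It fell 1.51-fold in the authors' deposited table (rate 0.0169), and its log2 difference was -0.58 (SE 0.15; limma adjusted p = 0.162). The small subunit gene Uqcr10 measured 2911, 3685 and 3987 against 2299, 2367 and 2375, and Uqcrq 3163, 3788 and 3726 against 2631, 2656 and 2416. Both fell in the authors' deposited table, 1.50-fold and 1.39-fold (rates 0.0108 and 0.0129). Uqcrh, the hinge protein, measured 6684, 8766 and 8123 against 5987, 5484 and 5119, and fell 1.42-fold in the authors' deposited table (rate 0.0273). Of the 2 core proteins, Uqcrc2 measured 12672, 14167 and 12848 against 10765, 10355 and 9155, and fell 1.31-fold in the authors' deposited table (rate 0.0325). The other core protein, Uqcrc1, was the exception of this complex: 11132, 10574 and 10239 against 9608, 11451 and 11551, a log2 difference of 0.03 (SE 0.12), and its groups overlapped.
The electron-carrying subunits of complex III were separated but were not called in the authors' deposited table. Uqcrfs1, the Rieske iron-sulfur protein, measured 5269, 7115 and 5449 against 4469, 4149 and 4255 (rate 0.055), and Cyc1, cytochrome c1, 8418, 10643 and 7856 against 6461, 7608 and 6707 (rate 0.155). Uqcrb and Uqcr11, small subunits, were lower as well, with log2 differences of -0.56 and -0.53, at means of 692 ± 114 and 680 ± 140 (SD, n = 3) in the libraries labelled wildtype.

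Complex IV had the lowest share of separated genes: 10 of 17 were separated and lower and 16 had a log2 difference below 0, with a median of -0.40. Of the 7 that overlapped, all but Cox6c and Cox7c were the tissue-restricted isoforms Cox4i2, Cox6a2, Cox6b2, Cox7a1 and Cox7b2, described below. Its 4 genes called in the authors' deposited table all encode widely expressed subunits. Cox7a2, the main isoform of subunit 7A (chromosome 9, 79755241 to 79771422), measured 5998, 6790 and 6884 under the wildtype label and 4557, 4235 and 3445 under the knockout label. Its log2 difference of -0.69 (SE 0.14) had a limma adjusted p of 0.146, and it fell 1.61-fold in the authors' deposited table (rate 0.0015). Cox8a, the main isoform of subunit 8, measured 9515, 13656 and 13485 against 8159, 7118 and 6864, and fell 1.66-fold in the authors' deposited table (rate 0.00704). Cox6b1, at the face of the complex that receives cytochrome c, measured 8298, 9871 and 8265 against 6253, 5782 and 5174, and fell 1.54-fold in the authors' deposited table (rate 0.00188). Cox7b measured 5344, 6081 and 4940 against 4354, 3791 and 3286, with a fall of 1.43-fold in the authors' deposited table (rate 0.0352).
Cox4i1, the main isoform of subunit 4, was separated with less distance, at 14444, 17264 and 17888 against 12436, 13200 and 13153 (log2 difference -0.35, SE 0.13). Cox5a, at 9638, 13402 and 8181 against 8164, 7789 and 7865, was separated by a few counts. Cox6a1 measured 6491, 7581 and 9042 against 5786, 6165 and 5403, and Cox7a2l, a factor of respiratory supercomplexes, 5847, 7506 and 6186 against 4938, 4671 and 5134. Cox5b, which binds zinc, was lower at a low level, 330, 484 and 299 against 256, 227 and 266. Cox6c and Cox7c overlapped between the labels.

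**Figure D2:**
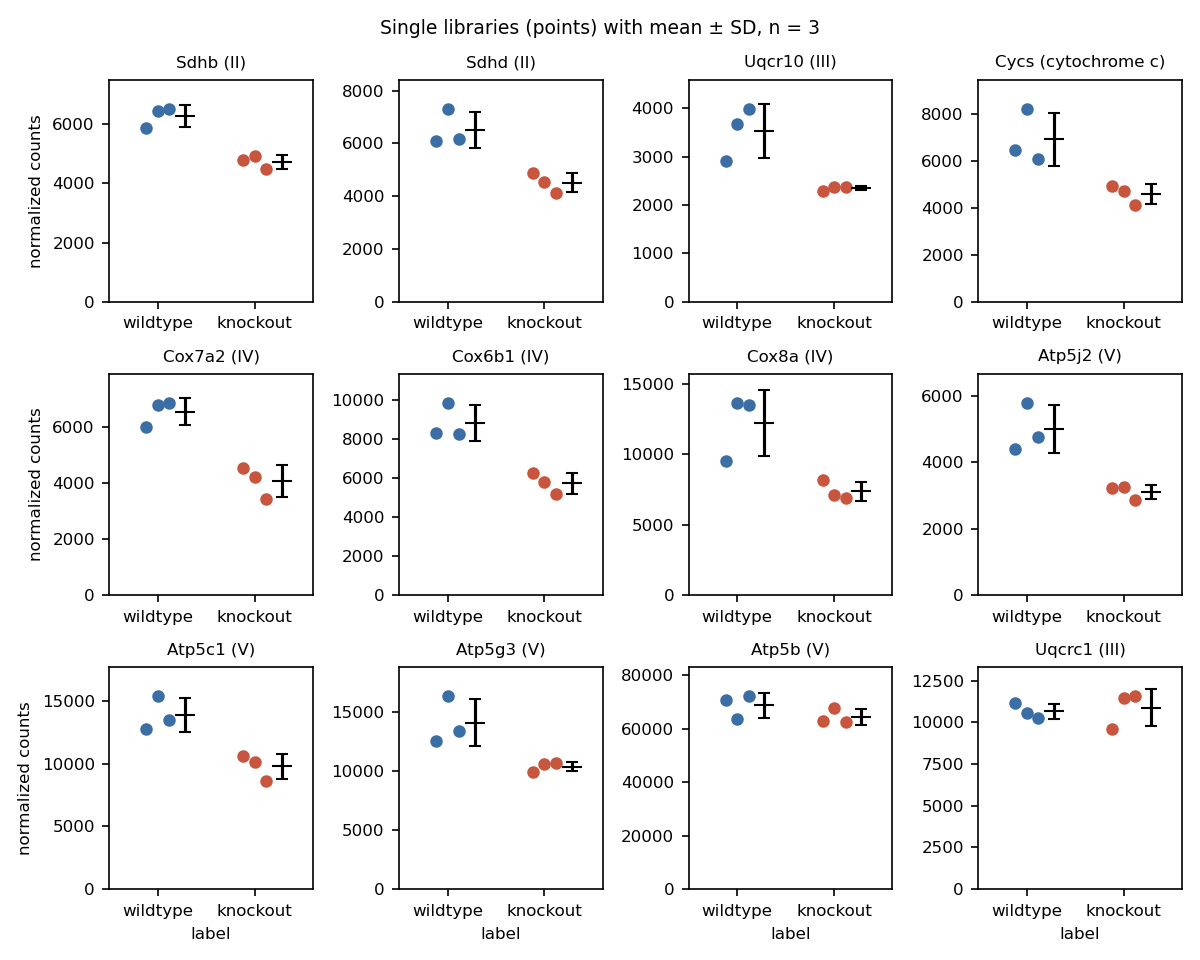
Normalized counts of 12 genes, with 1 point per library and the mean with SD (n = 3) beside it, from an axis that starts at 0. Sdhd, Cycs, Cox7a2 and Atp5j2 are separated between the labels, whereas Atp5b and Uqcrc1 overlap.

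Of the 15 genes of complex V, 15 had a log2 difference below 0 and 11 were separated, with a median of -0.46. The catalytic head differed by subunit. Atp5b, the beta subunit, which holds the catalytic sites and had the highest level of the 47 genes per kilobase of transcript, measured 70539, 63488 and 72043 against 62740, 67655 and 62310 and overlapped. Atp5a1, the alpha subunit, measured 53605, 58672 and 53380 against 46433, 49232 and 47305, separated with a log2 difference of -0.21 (SE 0.15; limma adjusted p = 0.467). Atp5c1, the gamma subunit that turns inside the head, measured 12777, 15377 and 13461 against 10589, 10136 and 8651, and fell 1.42-fold in the authors' deposited table (rate 0.0178). Atp5d, the delta subunit, was lower at 6901, 8081 and 7279 against 5672, 5820 and 6348, while Atp5e, the epsilon subunit, overlapped.
The stator and membrane subunits held most of the calls. Atp5o, which joins the head to the stalk, measured 6185, 7211 and 6311 against 4961, 4872 and 3966, and Atp5f1, stator subunit b, 5736, 6730 and 5497 against 4568, 4217 and 4197. They fell 1.43-fold and 1.38-fold in the authors' deposited table (rates 0.0188 and 0.0149). Atp5j2, membrane subunit f (chromosome 5, 145183704 to 145191541), measured 4408, 5794 and 4767 against 3220, 3262 and 2873, and fell 1.6-fold in the authors' deposited table (rate 0.00154). Atp5l, membrane subunit g, measured 693, 853 and 785 against 496, 471 and 569, and fell 1.52-fold in the authors' deposited table (rate 0.00964). Atp5j, stator coupling factor 6, was separated, whereas the groups of Atp5k, subunit e, and of Atp5h, stator subunit d, overlapped.
Subunit c, which forms the rotating ring, is encoded by Atp5g1, Atp5g2 and Atp5g3, whose mature proteins are the same. Together they measured 15283, 19562 and 16109 against 11957, 12637 and 12303. Atp5g3 alone measured 12521, 16321 and 13427 against 9924, 10552 and 10651, and Atp5g2 877, 1002 and 1176 against 770, 688 and 537. Both fell in the authors' deposited table, 1.36-fold (rate 0.0436) and 1.53-fold (rate 0.0471). Atp5g1 measured 1885, 2239 and 1506 against 1263, 1397 and 1115, with a rate of 0.0536 in the authors' deposited table. Atp5g3 supplied 82.9% ± 0.846 of the sum under the wildtype label and 84.4% ± 1.94 under the knockout label (SD, n = 3), and this share overlapped between the labels. Atp5s was separated and lower, at 856, 1005 and 690 against 680, 627 and 582.

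Transcripts of 17 of the 47 genes had a near-identical stretch, at least 95% identical over at least 150 bases, in another annotated gene. Such a stretch is called a copy here. The search went by sequence alone and did not set genes that overlap on the chromosome apart from true copies. The matches of Atp5f1 included Wdr77, and that of Uqcrc2 was Pdzd9. Atp5l had 9 such copies and Cycs and Atp5h 4 each, so their levels are uncertain where reads were divided among copies. Of these 17 genes 13 were separated and lower, as were 22 of the 30 without a copy, and each set held 9 of the genes that fell in the authors' deposited table.

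Several subunits of complex IV have isoforms restricted to certain tissues. Cox7a1 (heart and muscle) measured 163, 296 and 897 under the wildtype label and 174, 136 and 131 under the knockout label. Cox8b, also of heart and muscle, measured 501, 793 and 1524 against 435, 439 and 483. Both were highest in wildtype replicate 3, and the Cox7a1 groups overlapped. Without wildtype replicate 3 the log2 difference of Cox7a1 was -0.59 in place of -1.26 and that of Cox8b -0.48 in place of -0.90. That replicate also held the highest sum of the 9 red cell markers, 34669. The sum was 10828 and 11385 in the other wildtype libraries and 4001, 3892 and 2727 under the knockout label. All 9 markers were separated and lower. Hbb-b2 and Hbb-bt held the same values in every library, so the sum and the count of 9 include a repeated entry. In wildtype replicate 3 Cidea, a gene of brown fat, was 157, against 33 to 72 in the other 5 libraries, and Ucp1 and Elovl3 were not analysed here. A list of fat cell genes, added after values were seen, held 5 measured genes, of which 0 were separated. Car3, which muscle also expresses, measured 6301, 6998 and 26098 against 6911, 5388 and 6903, whereas the defining genes Adipoq and Plin1 were at 2 and 0 in wildtype replicate 3.
Markers of other cell types also differed between the labels. Of 7 neutrophil markers 6 were separated and lower, with a median log2 difference of -2.99 over the list, and Ltf overlapped, at 460 in knockout replicate 1. The list summed to 18 in knockout replicate 3, against 688 and 329 in the other knockout libraries. Of 5 osteoblast markers Bglap, Bglap2 and Ibsp were separated and lower, Bglap at 947, 403 and 780 against 124, 134 and 234. The other osteoblast markers, Col1a1 and Sp7, overlapped, with log2 differences above 0 (0.15 and 0.25). Of 6 pericyte markers Pdgfrb and Notch3 were separated and higher, with log2 differences of 0.63 and 1.03. The others overlapped: Rgs5 (-0.20), Kcnj8 (-0.28) and Higd1b (-0.23) were below 0 and Abcc9 (0.18) above. The median of this list was -0.01. Among Schwann cell markers Pmp22 and Mal were separated and lower, with log2 differences of -0.75 and -0.68, and Mbp, Prx and Sox10 overlapped. Markers of the organ of Corti, the neighbouring hair cell epithelium, summed to 8060, 7671 and 17349 against 30350, 31676 and 16553. The skeletal muscle markers without Pvalb, which neurons also express, summed to 258, 1686 and 301 against 266, 253 and 192, so they were high in wildtype replicate 2 and not in replicate 3. The part of these cells in the values of the respiratory chain genes was not tested.
Cox6a2, the third heart and muscle isoform, stood at 25 in wildtype replicate 2 and at 2 to 6 in the other 5 libraries. Cox4i2, an isoform of lung and of oxygen-sensing cells, measured 92, 78 and 74 against 84, 105 and 78. Cox6b2 measured 238, 302 and 153 against 237, 174 and 152, and Cox7b2 was at 1 to 6 in every library; both are testis isoforms. The share of each restricted isoform in its pair was compared for 6 pairs with a two-sided exact permutation test, which with 3 against 3 cannot give a p below 0.1; the p-values were 0.2 to 0.9, and each was 0.9 after Benjamini-Hochberg adjustment. Cox7a1 made up 6.12% ± 4.75 of its pair with Cox7a2 under the wildtype label and 3.48% ± 0.323 under the knockout label (SD, n = 3).

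**Figure D3:**
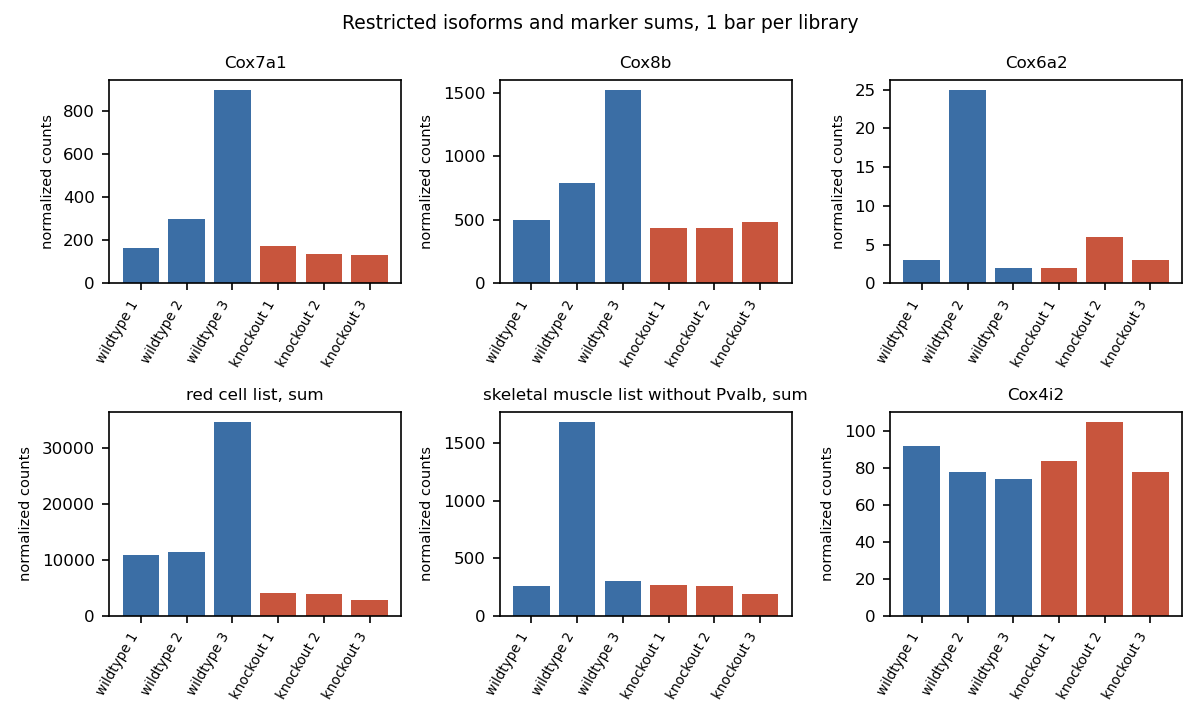
Normalized counts per library, with 1 bar each, of Cox7a1, Cox8b, Cox6a2 and Cox4i2 and of the summed red cell and skeletal muscle markers. Cox7a1, Cox8b and the red cell sum are highest in wildtype replicate 3, and Cox6a2 and the muscle sum in wildtype replicate 2.

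Differences between the labels moved with transcript length over the whole table. The median log2 difference was -0.33 for the 1458 genes with transcripts under 1000 bases, -0.17 for 1000 to 2000 bases, 0.00 for 2000 to 4000 bases and 0.24 for 4000 bases or more. The respiratory chain genes are short, with a median of 755 bases against 2724 for all genes. Among the 29 under 1000 bases the median was -0.51 and 65.5% were separated and lower, against 31.1% of all genes of that length. Level was not matched: their median under the wildtype label was 7085 normalized counts per kilobase, against 177 for all genes of that length. Among the 13 of 1000 to 2000 bases the median was -0.42, with 84.6% against 24.1%. The 5 of 2000 to 4000 bases, Sdha, Sdhc, Cycs, Atp5a1 and Atp5g1, were all separated and lower, against 12.9% of all genes of that length.

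**Figure D4:**
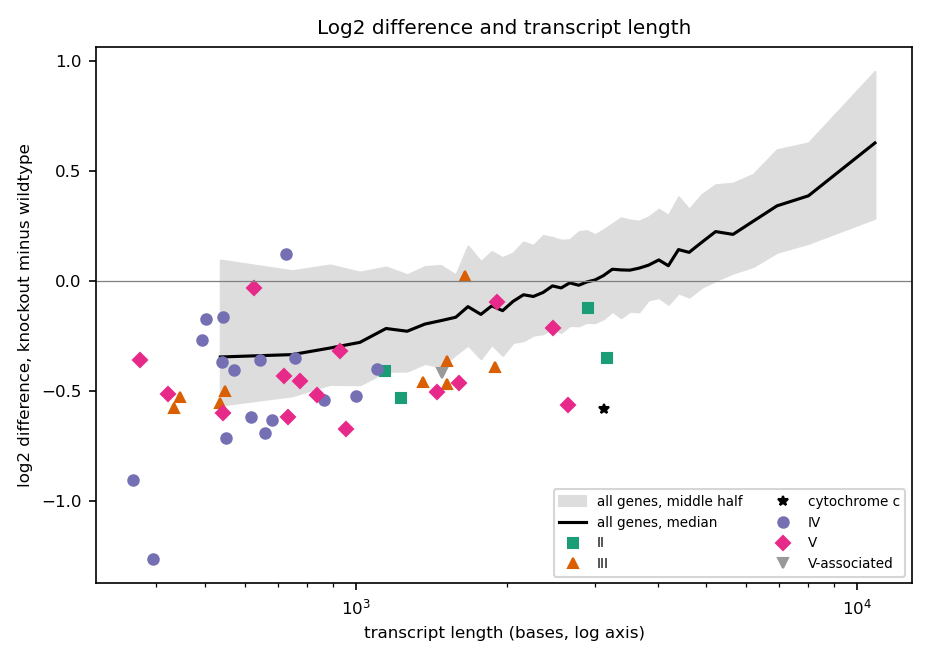
Log2 difference, knockout minus wildtype, against transcript length in bases on a log axis, with 1 point per gene coloured by complex, the median of all genes as a line and the range between their quartiles shaded. Most respiratory chain genes lie below the line of all genes at their length.

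After the trend with length was removed in each library by a lowess curve, the median of the 47 genes was -0.16, against 0.01 over all genes with a length. It was -0.22 in complex II, -0.16 in complex III with cytochrome c, -0.13 in complex IV and -0.16 in complex V. There were then 35 genes below 0 and 12 above, and 12 were lower at an unadjusted limma p under 0.05, 25.5% of the 47 against 6.91% of all genes. None of the 47 passed 0.05 after adjustment. Cycs kept a log2 difference of -0.60, Atp5g1 of -0.53 and Sdhc of -0.37. Their transcripts are 3123, 2655 and 3171 bases long, and all genes of 2000 to 4000 bases had a median of 0.00 before the correction. These genes thus had little trend to remove. Of shorter genes, Atp5j2 (955 bases) went from -0.67 to -0.37 and Cox7a2 (659 bases) from -0.69 to -0.31. In contrast, Cox4i1, Cox5a and Cox6a1 came to 0.00, 0.02 and 0.01 and Cox6c and Atp5h to 0.26 and 0.36. The size of the lower level thus depended on how length was handled. The cause of the trend was not tested.

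**Figure D5:**
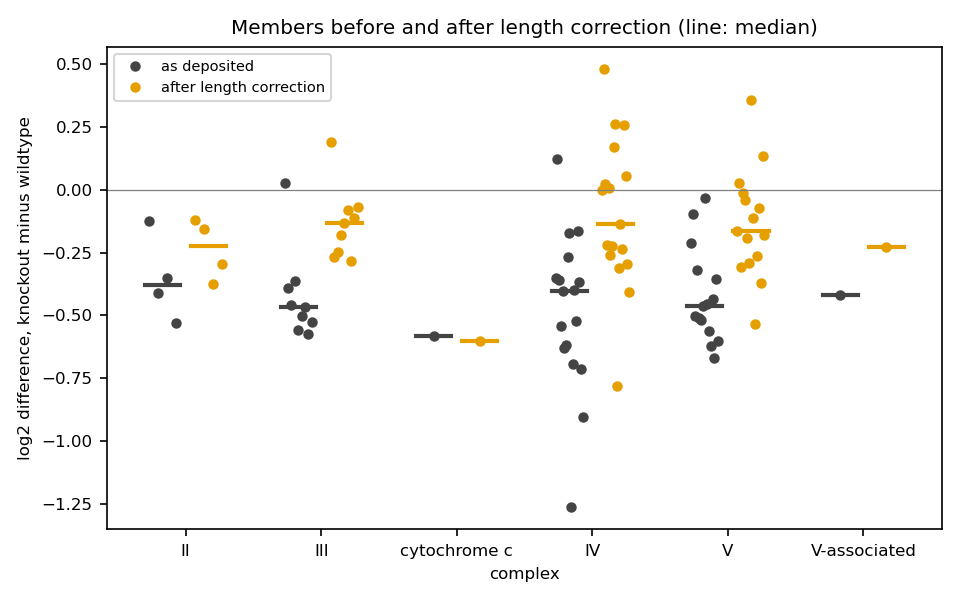
Log2 difference of each gene, knockout minus wildtype, by complex before and after the trend with transcript length was removed, with a line at each median. The medians of the 4 complexes move from between -0.48 and -0.38 to between -0.22 and -0.13.

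Other genes of the same pathway were read from lists. Complex I feeds electrons from NADH into the chain. Its list was chosen by symbol (Ndufa, Ndufb, Ndufc, Ndufs or Ndufv with a number). It includes Ndufa4 and Ndufa4l2, so not every gene in it need be a complex I subunit. Of its 37 genes, 31 were separated and lower and 19 fell in the authors' deposited table. Their median log2 difference was -0.44, and -0.08 after the length correction. Ndufa3 had the largest fall of these in the authors' deposited table, 1.75-fold (rate 0.000104), from 2603, 3382 and 2892 to 1840, 1696 and 1536. Of 37 assembly factors of complexes II to V, 20 were separated and lower, and Pet100, Uqcc3 and Cox16 fell in the authors' deposited table, with a list median of -0.24. Atpif1, which inhibits complex V when it runs backwards, was separated and lower, at 4429, 5122 and 3835 against 3764, 3626 and 3128, and was not called in the authors' deposited table (rate 0.182).
Of 13 enzymes of the citric acid cycle, 6 were separated and lower, with a median of -0.20, and of -0.11 after the length correction. Idh3g alone fell in the authors' deposited table, 1.35-fold (rate 0.015). Of 78 mitochondrial ribosomal proteins 56 were separated and lower (median -0.30), and of 81 cytosolic ribosomal proteins, which are not mitochondrial, 37 were (median -0.40). After the length correction these medians were -0.09 and -0.07.
Of 12 regulators of mitochondrial genes, 1 was separated and lower (Tfb2m) and 2 were separated and higher, with a median of 0.02. Over all genes 14.9% were separated and lower and 13.6% separated and higher, so these counts were near the shares of all genes. Ppargc1b, a coactivator of mitochondrial genes, measured 360, 145 and 224 against 451, 581 and 581 and rose 2.21-fold in the authors' deposited table (rate 0.0215). Pprc1, a related coactivator, measured 942, 705 and 643 against 995, 1145 and 1238. Nrf1 and Gabpa, whose motifs are printed above, had log2 differences of 0.08 (SE 0.11) and -0.03 (SE 0.12), and both overlapped between the labels. None of the 12 passed 0.05 with limma.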

How the data were processed

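RNA was sequenced from 6 auditory nerve samples, 3 of each label. The miRNeasy kit was used for total RNA, which was sequenced as TruSeq RNA libraries, per the labels' protocols. The submitters' processing notes name TopHat2, Partek, DESeq2 and mm10 and record neither versions nor roles. The deposited values are a score: gene counts scaled per sample by the authors and rounded to whole numbers, a reading taken from the values. A signed fold change and a false discovery rate of the authors accompany them; 2061 genes have no rate. Because the values were scaled, no count test was run.

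Values were analysed as log2(value + 1) with limma 3.58.1 (R 4.3.3, eBayes with trend) and Benjamini-Hochberg adjustment over all 17666 genes at 0.05; the filter of a mean of at least 1 removed 0 genes. Fold changes of low genes can be understated or overstated on this scale. Cox6a2 had a log2 difference of -0.63 and a fold change of -2.61 in the authors' deposited table. S100a8, at 1 in knockout replicate 3, had -3.44 and a fold change of -5.4. Tested on simulated data, the fit found 47 of 100 genes with a 2-fold change, 84 of 100 with a 4-fold change, and 8 false calls. The simulated libraries had the same spread under both labels and no trend with length, unlike these data. Changes under 2-fold, the size of most differences described here, were not simulated. Transcript lengths were medians over a gene's GENCODE M21 transcripts, those paired with a RefSeq mRNA where there were any. Copies came from blastn 2.17.0, and length was corrected per library with a lowess span of 0.3. The members and lists were chosen with earlier results of these data known, and the fat cell list and the muscle list without Pvalb after values were seen. Values are given in every sample for genes called in the authors' table or separated between labels, for the 3 genes of each complex with the highest mean, and for isoforms; a few separated genes are given by range or log2 difference. Whether replicates were prepared separately beyond coming from different mice is not given by the sources used here. The results of some marker genes are not reported here.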

Additional observations from a re-analysis of the deposited data

How the results depend on the processing

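The log2 difference kept its sign in every setting for 34 of the 47 genes. Limma called 28 genes over the whole table, 111 with sample weights, 16 without the trend, 7 with a replicate block and 0 to 419 with 1 library left out: 419 without wildtype replicate 3, 87 without replicate 1, 1 without replicate 2, and 0 without any 1 knockout library (1797 to 2222 genes at an unadjusted p under 0.05). Members called ranged from 0 to 2, the 2 being Cox6b1 (-0.66, limma adjusted p = 0.0494) and Atp5g1 (-0.71, limma adjusted p = 0.0488) without wildtype replicate 3. Cfb passed with sample weights (2.73) and without wildtype replicate 3 (2.91). With the replicate block 0 members were called. Deviations from the label means correlated at -0.05, 0.06 and 0.11 between same-numbered samples, and at -0.22 to 0.24 between the others. These values gave no sign that the numbers pair the samples, but 3 pairs are too few to exclude it. The length correction took the median from -0.38 to -0.22 in complex II, to -0.16 in complex III with cytochrome c, to -0.13 in complex IV and to -0.16 in complex V; that of complex II was -0.46 to -0.33 with 1 library left out.

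None of the genes whose sign changed was called by limma in either setting. With the length correction these were Cox4i1 (0.00115), Cox5a (0.0245), Cox6a1 (0.00754), Cox6b2 (0.17), Cox6c (0.263), Cox7b2 (0.259), Cox7c (0.0533), Atp5b (0.0259), Atp5h (0.359) and Atp5k (0.135). Under quantile normalization Uqcrc1 was -0.00643 and Cox4i2 -0.0103, and with sample weights Cox7b2 was 0.0464 and Atp5h 0.0273. With 1 library left out the log2 difference ranged from -0.0209 to 0.112 for Uqcrc1, -0.000667 to 0.214 for Cox4i2, -1.22 to 0.338 for Cox6a2, -0.727 to 0.176 for Cox7b2 and -0.173 to 0.0454 for Atp5h. The isoform share, in percentage points knockout minus wildtype, then ranged from -0.125 to 0.0283 for Cox6a2, -4.37 to 0.0727 for Cox7a1, -0.0177 to 0.0275 for Cox7b2 and -2.01 to 0.57 for Cox8b; the highest values of Cox7a1 and Cox8b were without wildtype replicate 3. The causes were not tested. Sequencing depth is unknown, so no floor could be set for low isoforms.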
